A study of Mus musculus with 72 samples.

Results

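The cytosolic ribosomal protein genes were examined in the livers of male and female C57BL/6J and DBA/2J mice fed diets that differed in protein content. The genes were chosen by symbol alone: a name made of Rpl or Rps and a number, with or without a closing a or x, or one of Rplp0, Rplp1, Rplp2, Rpsa and Rps3a1. Symbols were read from the authors' deposited table of comparisons, which holds 17575 genes, beside 51912 in the count table. This rule found 77 genes, 46 of the large (60S) subunit and 31 of the small (40S) subunit. No measured value entered the rule itself, but how the genes of the authors' table were chosen is not known here. The set was also chosen with earlier results of these data known. All 77 passed the filter on low counts that left 19362 genes for testing, and no member was at 0 in any library. Drawing from the smaller table may have favoured both outcomes. The lowest value of a member in a library was 6.80 CPM, the unit used throughout: read counts relative to library size, with libraries scaled to each other by trimmed means of M values (TMM).

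The 72 libraries, 1 per animal, made 12 groups of 6: each strain and sex on a diet labelled Control, Medium Protein or Low Protein. Animals kept at 22 °C were given the diets from 10 weeks of age for 13 weeks, and liver was collected at 23 weeks, food having been withheld for 16 h. The labels name no added allele or agent, and liver was taken as bulk tissue, so fewer cells of a type and less RNA per cell cannot be told apart. The diets are known here by their labels only, and another strain named with the series was not analysed here.

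Cytosolic ribosomal proteins join ribosomal RNA in the nucleolus to build the subunits that translate the messenger RNAs of the cytosol. Their own messages belong to the 5′ TOP class, whose first bases are a C followed by a run of pyrimidines, and whose translation is held back when the kinase mTORC1 is inactive, as when amino acids are scarce. Liver makes large amounts of secreted protein and its ribosome content is known to follow protein intake.

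The first bases of the members' transcripts are shown because they carry the TOP tract by which this class is known. A RefSeq promoter entry (GRCm38.p6) was found for 57 of 77 members. The motif searched was a C followed by an unbroken run of C or T, at least 5 letters in all, on the gene's strand and starting within 5 bases of the annotated start. It was present in 26 of 57 members (45.6%) and in 4989 of 27025 genes with an entry (18.5%). The windows of 30 bases run from 10 bases before the annotated start, capitals mark the tract, and the first 5 members below carried one. Rpl5 and Rps12 are shown as members in which no tract began within that reach, and the run of C and T in the Rps12 window begins further downstream.
Rpl12, chr2:32961702-32961731, plus strand: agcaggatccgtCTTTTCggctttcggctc
Rps6, chr4:86857348-86857377, minus strand: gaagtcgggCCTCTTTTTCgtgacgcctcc
Rpl38, chr11:114668570-114668599, plus strand: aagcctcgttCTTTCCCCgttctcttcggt
Rps15a, chr7:118116128-118116157, minus strand: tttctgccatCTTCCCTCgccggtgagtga
Rplp2, chr7:141447641-141447670, plus strand: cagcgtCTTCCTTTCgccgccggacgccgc
Rpl5, chr5:107900518-107900547, plus strand: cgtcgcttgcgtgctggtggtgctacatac
Rps12, chr10:23787190-23787219, minus strand: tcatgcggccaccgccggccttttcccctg
The tract is a match of letters and not evidence of use, and no match says only that no such run began within 5 bases of the annotated start.

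Library totals ran from 26937142 to 38447469 counts. The tissue label was borne out by hepatocyte markers, such as Alb (albumin) at 20490 to 70980 CPM over the 72 libraries. In 4 libraries over 5% of counts fell on nuclear rRNA-like genes, against a median of 0.156%: 2 of C57BL/6J M Control (the highest at 28.3%), 1 of C57BL/6J M Medium Protein and 1 of DBA/2J M Control. Another 9 were above 3 times the median, and results that rest on these libraries are given with and without them. The position codes in the labels run in group order, so position and group cannot be told apart.

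The 77 genes together held 0.460 to 0.918% of all counts in a library. In C57BL/6J males the members' summed level was 6946, 7266 and 7644 CPM (lowest, median and highest of 6) on Control, 6624, 7034 and 7777 CPM on Medium Protein, and 7675, 8069 and 8844 CPM on Low Protein. Every Low Protein male of this strain was above every Control male, while the Low Protein and Medium Protein ranges overlapped. In C57BL/6J females the summed level was 6214, 7703 and 7970 CPM on Control and 7277, 7654 and 8128 CPM on Low Protein.
DBA/2J males had 5865, 6425 and 7064 CPM on Control and 5805, 6960 and 7379 CPM on Low Protein. DBA/2J females had 5868, 6395 and 6973 CPM on Control and 6164, 7130 and 7324 CPM on Low Protein. The Control and Low Protein ranges overlapped in these 3 groups of animals.

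**Figure D1:**
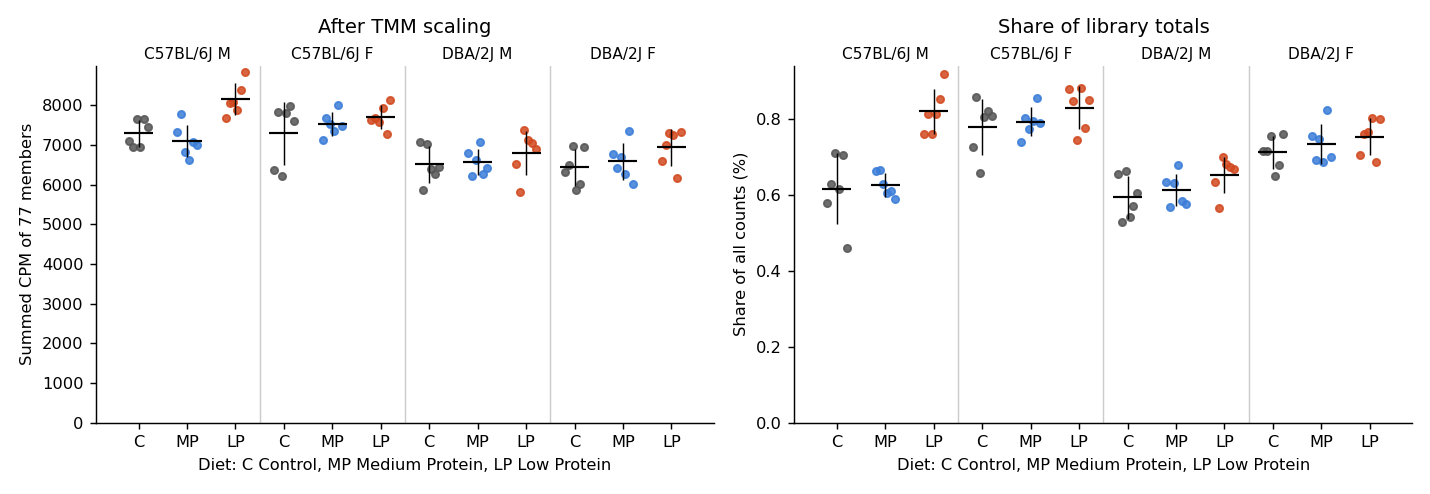
Summed CPM of the 77 members after TMM scaling (left) and their share of all counts in percent (right), 1 point per animal, with a bar at the group mean and a vertical line of 1 SD to either side, for the 12 groups of strain, sex and diet. In C57BL/6J males the Low Protein points (7675 to 8844 CPM) sit above the Control points (6946 to 7644 CPM), and the right panel shows the same animals without scaling between libraries.

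The first comparison asked how the members' messages differed between the Low Protein and Control diets within a strain and sex. In C57BL/6J males 25 of 77 members rose and none fell. Among them were genes of both subunits, 15 of 46 large-subunit and 10 of 31 small-subunit genes. The rises were small, from 0.18 to 0.45 on the log2 scale, and in each of the 25 genes all 6 Low Protein animals were above the Control median. Of all tested genes, 4.08% were called higher and 5.7% lower here, by edgeR's quasi-likelihood test at a Benjamini-Hochberg adjusted p below 0.05. The median change of the 77 members was 0.16 on the log2 scale (interquartile range 0.05 to 0.23), beside 0.01 for all tested genes, and 67 members were above 0. The groups did not overlap for 22 members, all higher on Low Protein, beside 1.71% of tested genes higher and 3.03% lower without overlap.

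Rpl5 binds the 5S ribosomal RNA and, together with Rpl11 and that RNA, forms the 5S particle of the large subunit. Its level in C57BL/6J males was 136, 145 and 156 CPM on Control and 173, 186 and 201 CPM on Low Protein. The groups did not overlap, and the log2 change was 0.36 ± 0.07 (SE, adjusted p = 0.00018). Its partner Rpl11 was at 89.7, 95.9 and 98.2 CPM on Control and 95.4, 97.6 and 102 CPM on Low Protein, a log2 difference of 0.05 (adjusted p = 0.666). The messages of these 2 partners thus gave unlike values, though the difference between them was not tested.

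Rps12, a protein of the small subunit, had no tract within reach of its annotated start. It was at 75.4, 86.6 and 105 CPM on Control and 112, 123 and 129 CPM on Low Protein, a log2 change of 0.45 ± 0.09 (adjusted p = 0.000349). Every Low Protein male was above every Control male.

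Rpl12, part of the base on which the P stalk sits, had a tract in the window printed above. It was at 56.2, 65.3 and 76.5 CPM on Control and 82.3, 88.2 and 99.99 CPM on Low Protein, a log2 change of 0.43 ± 0.09 (adjusted p = 0.00112). Rpl23, a large-subunit protein also known to bind Mdm2, was at 105, 113 and 123 CPM against 132, 143 and 155 CPM, a change of 0.35 ± 0.08 (adjusted p = 0.00188). In both genes every Low Protein male was above every Control male.

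The acidic P stalk, which recruits elongation factors to the ribosome, is made of Rplp0, Rplp1 and Rplp2, and none of the 3 passed the test. Rplp0 was at 194, 221 and 250 CPM on Control and 181, 241 and 262 CPM on Low Protein (log2 difference 0.10, adjusted p = 0.61). Rplp1 was at 48.0, 60.9 and 79.5 CPM against 28.7, 60.9 and 65.5 CPM (-0.13, adjusted p = 0.791). Rplp2, whose window carries a tract of 9 letters, was at 28.1, 34.2 and 44.4 CPM against 21.1, 37.9 and 46.1 CPM (0.05, adjusted p = 0.93). The groups overlapped for all 3 genes, and in each the lowest Low Protein value came from the same animal, replicate 1.

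In the small subunit Rps6, the substrate of S6 kinase, rose by 0.25 ± 0.07 (adjusted p = 0.0225). It went from 168, 184 and 201 CPM on Control to 204, 220 and 235 CPM on Low Protein, with no overlap. Rps3a1 was at 153, 167 and 180 CPM against 188, 200.4 and 219 CPM (log2 change 0.28, adjusted p = 0.0111). Rpsa, also known as the laminin receptor, was at 225, 241 and 259 CPM against 260, 289 and 302 CPM, without overlap, and missed the threshold (0.24, adjusted p = 0.0624). Rps27a, made as a fusion with ubiquitin, was at 86.5, 89.4 and 93.3 CPM against 89.7, 97.2 and 108 CPM (0.13, adjusted p = 0.311).

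Of the genes on the X chromosome, Rps4x and Rpl36a rose in C57BL/6J males and Rpl10 and Rpl39 did not pass the test. Rps4x was at 121, 128 and 143 CPM on Control and 149, 158 and 184 CPM on Low Protein (log2 change 0.33 ± 0.07, adjusted p = 0.000921). Rpl36a went from 32.3, 33.4 and 37.0 CPM to 37.1, 40.6 and 49.1 CPM (0.29, adjusted p = 0.0233). Rpl10, a late-joining large-subunit protein, was at 251, 257 and 286 CPM against 233, 286 and 308 CPM (0.10, adjusted p = 0.385).

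The lowest values in the same comparison were those of Rpl36 and Rps16, neither of which passed the test. Rpl36 was at 19.5, 27.6 and 34.5 CPM on Control and 8.79, 21.6 and 26.8 CPM on Low Protein (log2 difference -0.43 ± 0.26, adjusted p = 0.317). Rps16 was at 23.9, 26.6 and 34.6 CPM against 18.7, 22.6 and 26.3 CPM (-0.32 ± 0.14, adjusted p = 0.131). Both genes' groups overlapped. The other uncalled genes named by rule were Rpl41 at 0.03 and Rpl13a at 0.25 (adjusted p = 0.0655).

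**Figure D2:**
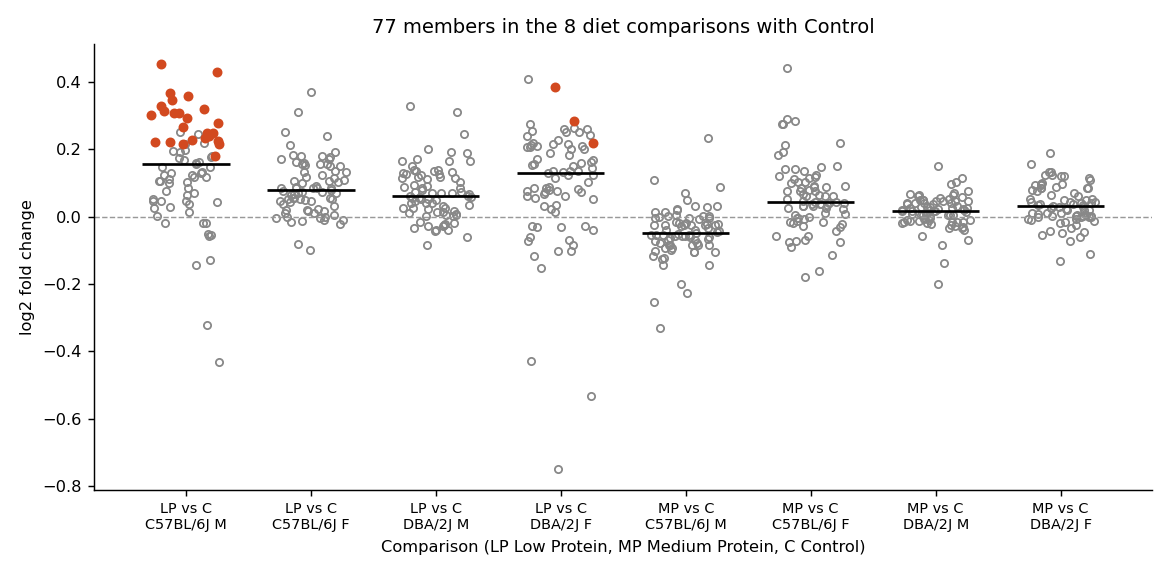
Log2 fold change of each of the 77 members (points) in the 8 comparisons of Low Protein or Medium Protein with Control, by strain and sex, with filled points for members called at an adjusted p below 0.05 by edgeR's quasi-likelihood test and a bar at the median. In C57BL/6J males 25 points are filled under Low Protein and the median is 0.16, in DBA/2J females 3 are filled, and no point is filled in the other 6 comparisons.

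In the other animals few or no members passed. In C57BL/6J females 0 of 77 were called by edgeR's quasi-likelihood test, beside 1.47% of tested genes called higher and 1.78% lower. At an unadjusted p below 0.05, 11 were higher and 0 lower, and DESeq2 and limma-voom each called 1 member. The shares of tested genes here and below are at the adjusted threshold. They are no background for counts at an unadjusted p, for which no such share is given. The median member change was 0.08. In DBA/2J males edgeR called 0, beside 0.0465% of tested genes in each direction, with 7 higher and 0 lower at an unadjusted p below 0.05, 1 call by DESeq2 and 0 by limma-voom. The median member change there was 0.06.

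In DBA/2J females 3 members rose and none fell, beside 0.609% of tested genes called higher and 0.207% lower, and the median change was 0.13. Rpl35a, a large-subunit protein, was at 44.1, 56.6 and 65.1 CPM on Control and 68.5, 73.5 and 75.9 CPM on Low Protein, without overlap (log2 change 0.39 ± 0.08, adjusted p = 0.00359). Rpl11 was at 80.1, 86.1 and 91.9 CPM against 87.3, 100.4 and 112 CPM (0.22, adjusted p = 0.028). Rps20 was at 46.6, 53.4 and 57.6 CPM against 56.6, 65.8 and 68.8 CPM (0.28, adjusted p = 0.0285). For Rpl11 and Rps20 the groups overlapped.
The lowest values of DBA/2J females were those of Rpl36 (-0.75, adjusted p = 0.168) and Rplp2 (-0.53, adjusted p = 0.259), and neither was called. The count in these females rests on single libraries. It was 12 without Control replicate 3, 5 without Control replicate 6, and 1 without any one of Control replicates 2, 4 and 5 or Low Protein replicates 3, 4 and 6. Without the 13 libraries richest in rRNA-like counts it was 1.

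**Figure D3:**
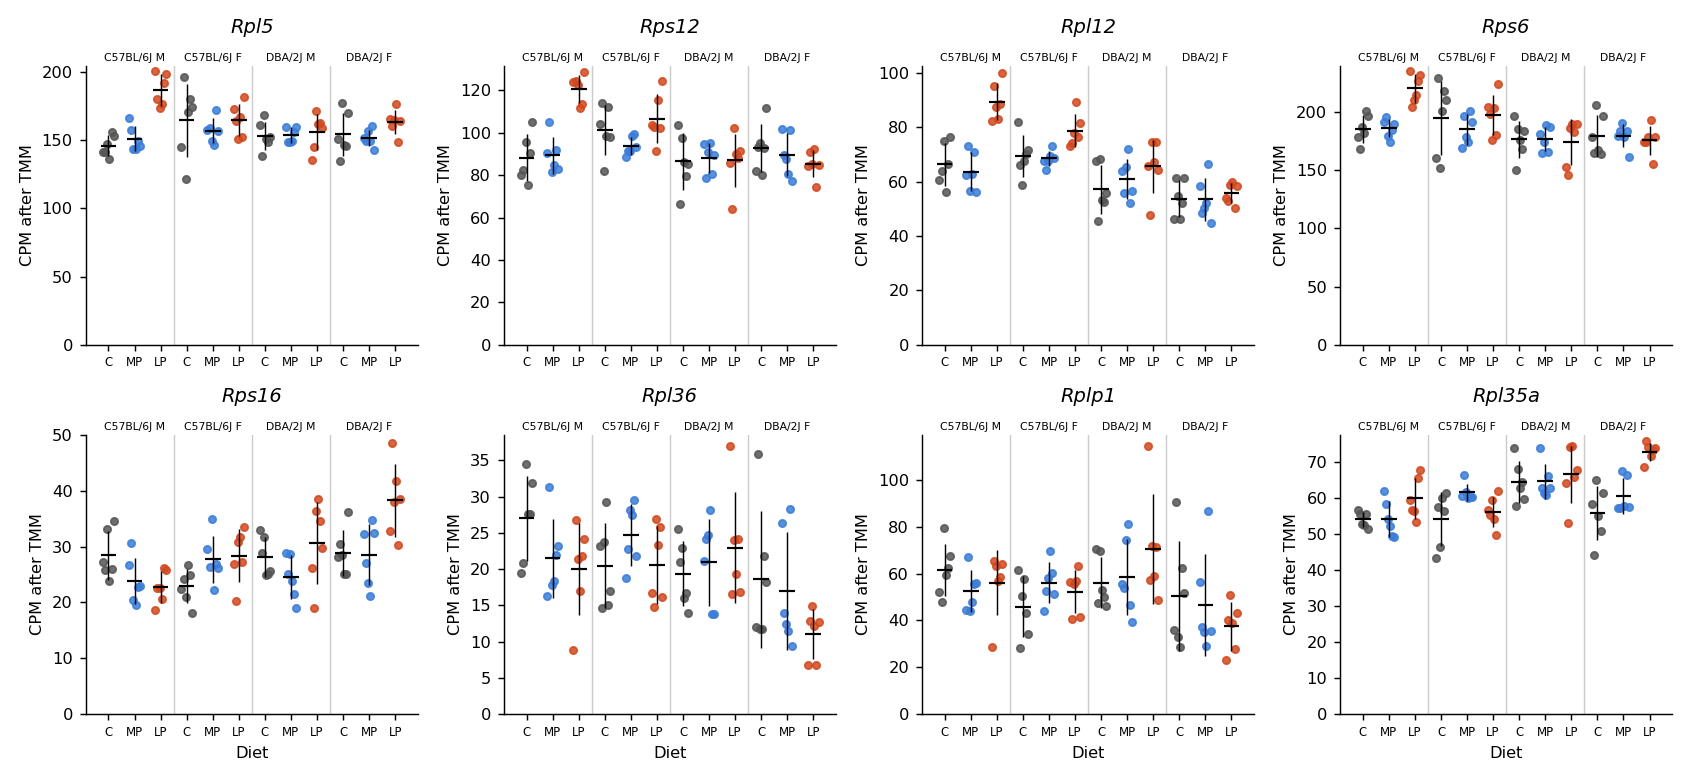
CPM after TMM of 8 members in the 12 groups, 1 point per animal, with a bar at the group mean and a vertical line of 1 SD to either side, each panel on its own axis. Rpl5, Rps12, Rpl12 and Rps6 show Low Protein points above all Control points in C57BL/6J males only among the 4 strain and sex pairs, Rpl35a shows this in DBA/2J females, and Rps16, Rpl36 and Rplp1 overlap in C57BL/6J males.

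Whether the Low Protein change differed between sexes or strains was tested by the interaction term. Between C57BL/6J males and females it differed for 3 members, among them Rpl5 (0.36 ± 0.10 greater in males, adjusted p = 0.0212) and Rps16 (-0.63 ± 0.19, adjusted p = 0.0433). Of tested genes, 1.85% differed upward and 2.71% downward. Female Rpl5 was at 122, 172 and 196 CPM on Control and 151, 165 and 182 CPM on Low Protein, and these ranges overlapped. Rps16 was at 18.2, 23.3 and 26.8 CPM in Control females and 20.3, 29.1 and 33.5 CPM in Low Protein females.
Between DBA/2J and C57BL/6J males it differed for 2 members, Rps12 (-0.44, adjusted p = 0.0401) and Rpl5 (-0.33, adjusted p = 0.0404), beside 1.97% of tested genes upward and 0.909% downward. These calls rest on few libraries: Rps12 was lost in 15 of 24 fits that left out 1 library, Rps16 in 14, and Rpl5 in 13 of those between strains and 1 of those between sexes. The 2 interactions that remain, between DBA/2J sexes and between females of the strains, gave 0 calls by edgeR, DESeq2 and limma-voom, with 3 higher and 7 lower and 5 higher and 4 lower members at an unadjusted p below 0.05. Of tested genes 0 differed in the former, and 0.031% upward and 0.062% downward in the latter.

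The intermediate diet was compared in the same way. On Medium Protein against Control no member was called in any of the 4 pairs of groups by edgeR, DESeq2 or limma-voom. Members at an unadjusted p below 0.05 numbered 1 higher in C57BL/6J males, 7 higher and 1 lower in C57BL/6J females, 0 in DBA/2J males and 2 higher in DBA/2J females. Of tested genes, 0.305% were called higher and 0.114% lower in C57BL/6J males, 0 in C57BL/6J females, and 0.00516% in one direction in each sex of DBA/2J. The median member differences were -0.05, 0.04, 0.02 and 0.03 in that order.

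On Low Protein against Medium Protein 29 members rose and none fell in C57BL/6J males, beside 2.42% of tested genes called higher and 4.11% lower, with a median of 0.19. This comparison shares its Low Protein animals with the one against Control, so its calls are not separate evidence. Rpl12 gave the smallest p (62.7 CPM median on Medium Protein, 88.2 on Low Protein; log2 change 0.49, adjusted p = 0.000293), followed by Rps12 (0.43) and Rpl38 (0.27, adjusted p = 0.000874). The other 3 pairs of groups gave 0 calls by edgeR, DESeq2 and limma-voom, with 7, 4 and 12 members higher and 0, 0 and 2 lower at an unadjusted p below 0.05 in C57BL/6J females, DBA/2J males and DBA/2J females. Of tested genes, 0.924% were called higher and 1.02% lower in C57BL/6J females, 0 in DBA/2J males, and 0.0258% higher and 0.0155% lower in DBA/2J females.

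Averaged over the 4 pairs of strain and sex, 28 members rose on Low Protein against Control and none fell, beside 3.84% of tested genes called higher and 4.17% lower. The median change was 0.10. Rpl3, which lies at the peptidyl transferase centre, changed by 0.21 (adjusted p = 0.00012) and Rpl38 by 0.15 (adjusted p = 0.000304). Rpl3 medians on Control and Low Protein were 166 and 192 CPM in C57BL/6J males, 174 and 206 CPM in C57BL/6J females, 143 and 152 CPM in DBA/2J males and 142 and 174 CPM in DBA/2J females, higher on Low Protein in all 4. Averaged in the same way, Medium Protein gave 0 calls by edgeR, DESeq2 and limma-voom, with 1 member at an unadjusted p below 0.05 and 0 of all tested genes called.

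The size of these counts depended on scaling, on library choice and on the fold asked for. Without the 4 libraries over 5% rRNA-like counts, 17 members rose in C57BL/6J males on Low Protein, all among the 25. Without the 13 over 3 times the median it was 14, again all among the 25, and without Control replicate 4 alone it was 16. The same 2 exclusions left 18 and 13 members against Medium Protein, and 23 and 17 in the average over the 4 pairs. When libraries were scaled by their totals in place of TMM, 66 members rose and the median was 0.40. Mean TMM factors of C57BL/6J males were 0.847 on Control and 1.007 on Low Protein. Leaving these factors out moves every gene upward, and the shares of tested genes given above belong to the TMM fit. When the test asked for a change beyond 1.2-fold, 0 members were called.

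Red blood cell markers also moved with this comparison. The summed level of 6 red blood cell markers was 126.5, 163.5 and 259.1 CPM on Control and 168.1, 377.9 and 477.7 CPM on Low Protein in C57BL/6J males, and 4 of 6 were called higher. Of 7 hepatocyte markers 2 were called lower, Serpina1c (-0.52) and Cps1 (-0.59), and of 10 macrophage markers none was called. Over the 72 libraries, after removing group means, the members' mean log2 level had a correlation of -0.15 with the red blood cell sum and -0.21 with the macrophage sum, given as descriptions. Their part in the diet result was not tested.

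Messages of the wider translation machinery were read from lists chosen with earlier results known, and their counts stand beside 4.08% of all tested genes called higher and 5.7% lower. In C57BL/6J males on Low Protein, 9 of 73 tested ribosome assembly factors rose and none fell, with a median of 0.16. They included Nop2 (0.65, adjusted p = 9.908e-05), an rRNA methyltransferase, Ebna1bp2 (0.34) and Nolc1 (0.60). Of 20 RNA polymerase I genes 4 rose, among them Taf1d (0.35), Twistnb (0.39) and the initiation factor Rrn3 (0.38). Of 41 elongation and initiation factors 5 rose and 1 fell, with Eif3a at 0.36, Eef1g at 0.34 and Eef1b2 at 0.29.
Of 31 growth-signalling genes 3 rose and 1 fell, the fall being Sesn3 (-0.79). The 3 that rose are not named here, and no state of signalling was read from this list. Of 78 mitochondrial ribosomal protein genes none rose and 1 fell, Mrpl12 (-0.40), with a median of -0.06. Of 9 tested genes akin to members but outside the symbol rule, Rpl36al (0.28) and Rack1 (0.26) rose. The cytosolic and mitochondrial lists thus had medians of opposite sign in the same animals, 0.16 and -0.06, beside 0.01 for all tested genes.

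Members with and without the TOP tract near the annotated start were set side by side. In C57BL/6J males on Low Protein the 26 members with a tract had a median change of 0.14, with 9 called, and the 31 matched members without one had a median of 0.15, with 10 called. The medians with and without a tract were 0.09 and 0.07 in C57BL/6J females, 0.08 and 0.06 in DBA/2J males, and 0.06 and 0.135 in DBA/2J females. In the average over the 4 pairs they were 0.07, with 5 members called, and 0.11, with 14 called. None of these differences was tested. These are descriptions of message levels and bear on no step of translation.

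The second comparison was between males and females on the Control diet. In C57BL/6J 4 members were higher and 3 lower in males, beside 11.6% and 9.18% of tested genes. Rps2 was at 281, 296 and 331 CPM in males and 212, 255 and 280 CPM in females, without overlap (log2 difference 0.28, adjusted p = 0.00171). Rpl41 (0.25), Rps15 (0.22) and Rplp0 (0.28) were also higher, and Rps15a (-0.33) and Rpl21 (-0.22) were among those lower. In DBA/2J Rpl27 (0.35, adjusted p = 0.00327), Rpl29 (0.40) and Rpl35a (0.21) were higher in males and none was lower, beside 10.4% and 7.85% of tested genes.
Both shares of members were below the background in either direction. The direction of the sex comparison depended on scaling. With library totals 61 members in C57BL/6J and 46 in DBA/2J were lower in males and none was higher. The medians were then -0.37 and -0.25 in place of -0.03 and 0.03. Mean TMM factors of Control males and females were 0.847 and 1.072 in C57BL/6J and 0.9125 and 1.111 in DBA/2J. Library totals thus move every gene downward in males, and no share of tested genes is given for that scaling. In C57BL/6J 2 of 10 macrophage markers, 2 of 7 stellate and fibroblast markers and 2 of 5 proliferation markers were lower in males. Red blood cell markers summed to 126.5, 163.5 and 259.1 CPM in C57BL/6J males and 61.4, 110.6 and 195.1 CPM in females. In DBA/2J they were at 201.0, 218.8 and 290.5 CPM in males and 44.6, 81.6 and 115.9 CPM in females, without overlap. The part of these markers in the sex comparisons was not tested.

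**Figure D4:**
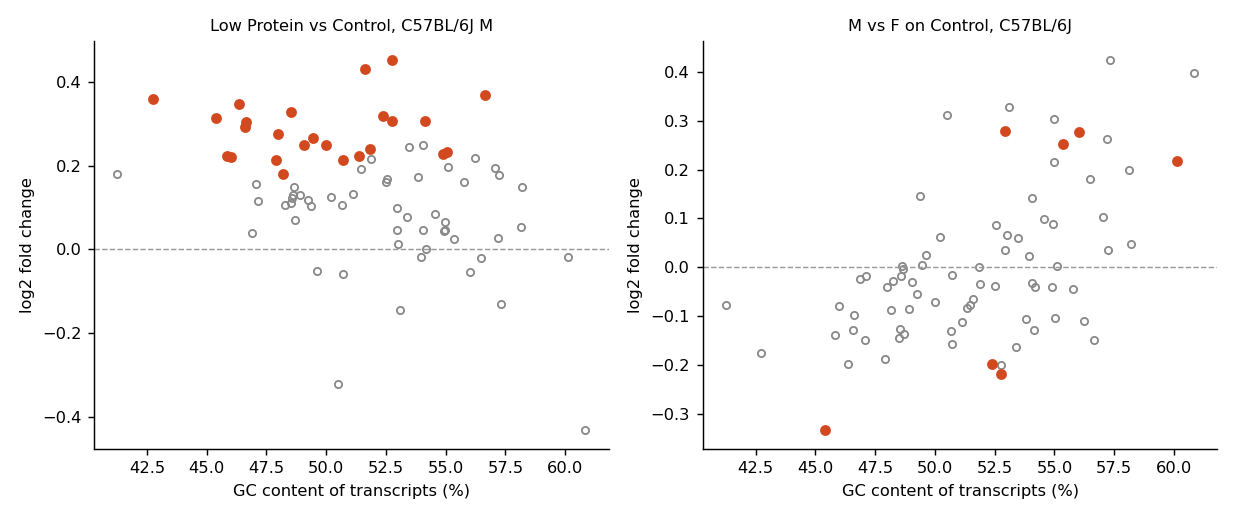
Log2 fold change of the 77 members against the mean GC content of their annotated transcripts in percent, for Low Protein against Control in C57BL/6J males (left) and for males against females on Control in C57BL/6J (right), filled where called at an adjusted p below 0.05. The points slope downward on the left (Spearman -0.34) and upward on the right (0.52).

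The relation of member changes to the GC content of their transcripts differed in sign between comparisons. Over the 77 members the Spearman correlation of GC with the log2 change was -0.34 for Low Protein in C57BL/6J males and 0.52 for sex in C57BL/6J, beside -0.10 and 0.22 over all tested genes with a GC value. For Low Protein it was 0.33 in C57BL/6J females, 0.38 in DBA/2J males and -0.23 in DBA/2J females. It was 0.33 for sex in DBA/2J, and -0.36 in males and -0.03 in females for strain. Members share libraries and depth, and the diet, sex and strain comparisons share Control animals, so these are descriptions. With a smooth correction for GC in each library, 33 members rose in C57BL/6J males on Low Protein, including all 25 of the uncorrected fit. In the sex comparison of C57BL/6J the same correction left 0 higher and 7 lower. No share of tested genes under this correction is given, so these counts have no background beside them.

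The third comparison, between the strains on the Control diet, gave the largest differences of any member among the comparisons made here. In males 4 members were higher and 14 lower in DBA/2J, beside 14.9% and 15.6% of tested genes. In females 1 was higher and 19 lower, beside 13.8% and 14%. Rpl29 was lower by the most, from 52.9, 61.3 and 69.2 CPM in C57BL/6J males to 11.9, 14.7 and 17.7 CPM in DBA/2J males (log2 difference -2.03, adjusted p = 2.95e-22) and by -2.17 in females. Rplp0 differed by -1.36 in males and -1.23 in females, Rpl21 by -1.15 and -1.46, and Rps18 by -1.14 and -1.33.
Rpl34 differed by -0.87 and -0.88, Rps2 by -0.82 and -0.58, and Rpsa by -0.79 and -0.73. Rps27 was the member higher in both sexes of DBA/2J, by 0.60 and 0.41. Over all diets and both sexes, 36 libraries a strain, the ranges of 7 members did not overlap: Rpl21, Rpl29, Rpl34, Rplp0, Rps18, Rps2 and Rpsa, all lower in DBA/2J, beside 1.08% of tested genes lower and 1.46% higher without overlap.

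These 7 genes have near-identical copies elsewhere in the genome, and the deposited estimates split reads between a gene and its copies. Copies at 90% identity or more over at least 80% of the coding sequence were found for 71 of 77 members, 861 copies in all. Estimates that were not whole numbers, a sign of reads shared out between features, made up 91.8% of the members' values, none of which was 0, and 24.97% of all values above 0. In 22 members the copies held over 10% of the sum of gene and copies, so the level of those members alone is uncertain. Whether the strain differences of the 7 genes come from the way reads were assigned was not tested.

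In the pairs printed here few coding bases separate a gene from its copy, and the distance varied among the pairs not printed. Rpl34-ps1 differs from Rpl34 at 2 of 351 coding bases, and Gm8730 differs from Rplp0 at 12 of 951. Rps2-ps6 has 95.1% identity to Rps2, and Gm16061 has 90.6%. Rps18 (chr17:33951999-33956001, minus strand) differs from Rps18-ps3 (chr8:107262793-107263248, minus strand, processed pseudogene) at 3 of 456 coding bases and from Gm10260 (chr13:97760072-97760632, minus strand, annotated as protein coding) at 4. Both copies carry A337C. Rpsa (chr9:120127689-120132369, plus strand) differs from Rpsa-ps10 (chr3:150072658-150073542, minus strand, processed pseudogene) at 6 of 885, of which C25A is shown. Positions count from 1 at the A of the start codon, the first letter being the gene's base and the last the copy's, in the reference genome (GRCm38, GENCODE M21). The capital marks that position in 30 coding bases.
Rps18: cgtgaggacctggagAggctgaagaaaatt
Gm10260 and Rps18-ps3: cgtgaggacctggagCggctgaagaaaatt
Rpsa: gcccttgacgtcctgCagatgaaggaggag
Rpsa-ps10: gcccttgacgtcctgAagatgaaggaggag
Reads that do not cross such a base cannot be assigned to one locus by sequence, and these windows are of the reference only. DBA/2J sequence at these sites was not analysed here.

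In these 7 genes the level of the gene and of its summed copies differed in opposite directions between the strains. Single copies did not all do so. Of those with a mean of at least 5 CPM in a strain, 16 were higher in DBA/2J without overlap and 16 overlapped. Only 1 was higher in C57BL/6J without overlap, Gm10095, a copy of Rpl21. Rps18 alone was at 108, 135 and 160 CPM over the 36 C57BL/6J libraries and 39.0, 56.2 and 73.6 CPM over the 36 DBA/2J libraries. Its summed copies were at 0.524, 0.823 and 2.01 CPM in C57BL/6J and 49.7, 75.4 and 97.7 CPM in DBA/2J. Gene and copies together were at 109, 136 and 161 CPM against 96.4, 133 and 164 CPM, and these ranges overlapped.

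Rplp0, the P stalk anchor, followed the same layout. Alone it was at 165, 199 and 262 CPM in C57BL/6J and 59.3, 86.0 and 113 CPM in DBA/2J, while its copies were at 0.428, 0.803 and 1.90 CPM against 31.0, 58.6 and 77.7 CPM. Rpsa was at 195, 246 and 302 CPM against 94.5, 139 and 171 CPM, with copies at 2.26, 3.13 and 4.05 CPM against 57.6, 70.2 and 84.98 CPM. The copies of 13 members did not overlap between the strains, each higher in DBA/2J, and no sum of gene and copies was without overlap (0 of 77). Of tested genes counted alone, 1.46% were higher and 1.08% lower in DBA/2J without overlap.

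Of the copies whose sequences are printed above, Gm10260 was at 0, 0 and 1.67 CPM in C57BL/6J and 29.0, 48.3 and 60.9 CPM in DBA/2J. Rps18-ps3 was at 0, 0.0574 and 0.338 CPM against 17.7, 21.97 and 30.4 CPM, and Rpsa-ps10 at 0.880, 1.83 and 3.34 CPM against 57.6, 70.2 and 84.8 CPM. Gm15500, a copy of Rpl5 with the same coding sequence and chosen after its values were seen, was at 19.4, 28.8 and 41.9 CPM against 19.9, 27.2 and 40.5 CPM.

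With each member summed with its copies, 4 members were higher and 9 lower in DBA/2J males, and 1 higher and 10 lower in females. With genes counted alone, 14.9% of tested genes were called higher and 15.6% lower in males, and 13.8% and 14% in females. With the sums Rps18 differed in males by 0.05 (adjusted p = 0.675) and Rpl21 by -0.16 (adjusted p = 0.125), so neither was called. Rplp0 (-0.59 in males, -0.45 in females) and Rpl29 (-0.77 and -0.79) were still called, and Rps2 was called in males (-0.41). The diet result did not move with this change: 26 members rose in C57BL/6J males on Low Protein, including all 25 of the genes counted alone.

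**Figure D5:**
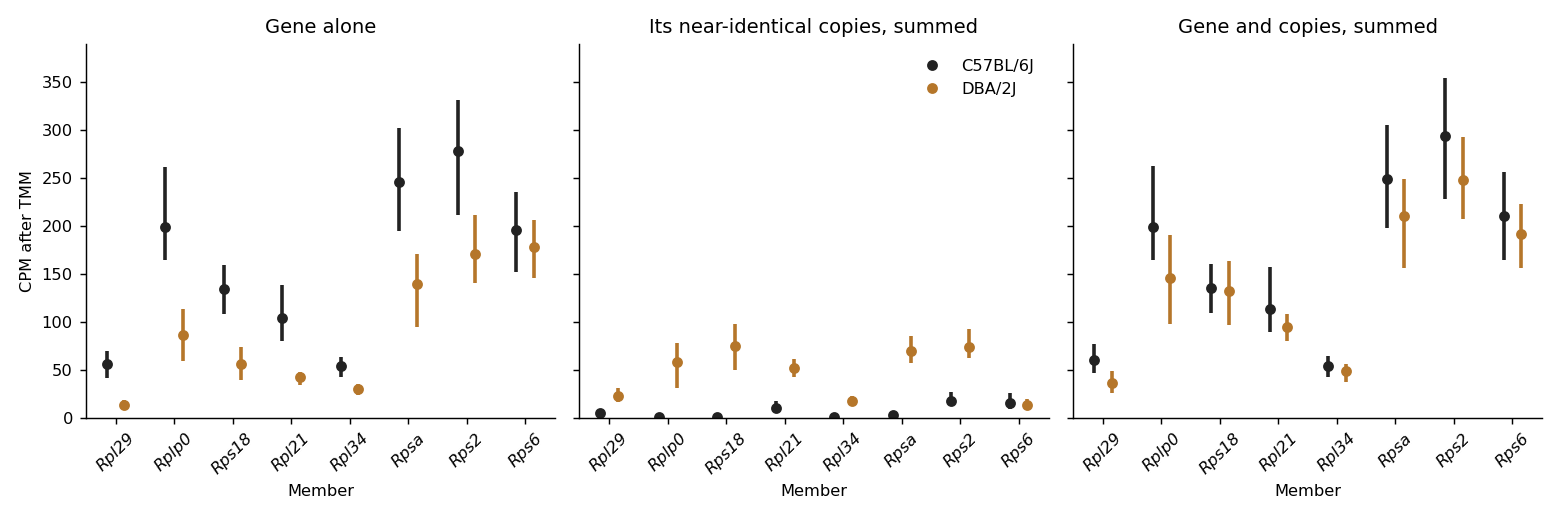
CPM after TMM of 8 members alone, of their near-identical copies summed, and of both together, over 36 C57BL/6J and 36 DBA/2J libraries (point at the median, line from lowest to highest). For the 7 members on the left of each panel the gene is lower and its copies higher in DBA/2J without overlap, while the sums overlap, and Rps6 is shown as a member whose gene and copies overlap between strains.

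The median within-group standard deviation of log2 CPM was 0.139 for the members and 0.229 for all tested genes, 2 sets that were not matched for level. Among the 77 members it was lower where the mean CPM was higher (Spearman -0.52, a description). Rpl36 (0.448), Rplp1 (0.403) and Rplp2 (0.370), 3 short large-subunit messages of which 2 encode the stalk, varied the most, and Rpl11 (0.089) the least. After removing group means, the correlation between a pair of members over the 72 libraries had a median of 0.52 (2926 pairs). Among the 8 most variable members it was 0.68, among the other 69 it was 0.54, and between these sets 0.37, where all pairs share libraries and scaling.

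The authors' deposited table of comparisons, made from the same libraries, gave like counts for the members and is not separate evidence. By the authors' deposited table, on Low Protein 26 members were higher and none lower against Control in C57BL/6J males, 25 of them the genes called above, with a median of 0.16. Of all 17575 genes in that table, 789 were higher and 1135 lower in this comparison. The authors' deposited table listed 1 member in C57BL/6J females, 1 in DBA/2J males and 4 in DBA/2J females, 3 of these last called in both, and 0 in each Medium Protein comparison with Control. Over all its genes on Low Protein, 359 were higher and 373 lower in C57BL/6J females. Those numbers were 12 and 12 in DBA/2J males, and 146 and 42 in DBA/2J females. On Medium Protein 27 were higher and 13 lower in C57BL/6J males, and 0 in the other groups of animals.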

How the data were processed

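Liver RNA of 72 mice was sequenced from stranded polyA-selected libraries, 1 per animal, each run on 2 lanes that were merged, per the labels' protocols. The values deposited are expected counts per gene from RSEM, per the submitters' processing notes, which also name edgeR, limma and R 3.4.3. No aligner, genome build or annotation is given in the sources used here. The authors' deposited table of comparisons gives log2 fold changes and adjusted p-values for 17575 genes, with an F score per gene that was not used, and is quoted only where named.

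Here the expected counts were rounded to whole numbers, 19362 of 51912 genes were kept by edgeR's filterByExpr, and libraries were scaled by TMM. One quasi-likelihood fit in edgeR 4.0.16 over the 12 group means gave 22 contrasts, with Benjamini-Hochberg adjustment over all tested genes and a threshold of 0.05. Fold changes are on the log2 scale with standard errors. The p-values measure the spread between animals of a group. The fit was tested on simulated counts before use. Totals of 26937142 to 38447469 counts per library and 6 animals a group set the precision. Of the table's identifiers, 51633 had a name and 279 had none.

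The members, the other gene lists and the marker lists were chosen with earlier results of these data known. The rule for named genes took, for Low Protein against Control, sex and strain, the called members with the 6 smallest p-values in each direction and the 2 highest and 2 lowest changes. For the other comparisons it took the 3 smallest p-values in each direction and the extremes. It always took Rplp0, Rplp1, Rplp2, Rpsa, Rps3a1, Rps6, Rpl5, Rpl11, Rps27a, Rpl10, Rps4x, Rpl41 and Rpl13a. Some members that the rule took are not reported here. Copies of coding sequences were found with blastn 2.17.0 in GENCODE M21 transcripts.

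Alternatives were DESeq2 1.42.0, limma-voom (limma 3.58.1), other scaling, no filter, the compared groups only, a test against a fold of 1.2, and leaving out libraries. Added after seeing the data were sums with copies, a GC correction and leaving out 4 libraries.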

Additional observations from a re-analysis of the deposited data

Results flagged for a closer look

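Single libraries far from the others of their group were looked for in 18 named members and in the members' mean, in 228 groups of 6. Of these, 10 were flagged (4.39%), and chance gives about 1 in 20. Replicate 1 of C57BL/6J M Low Protein was far below its group in all 3 stalk genes, with Rplp0 at 181.4 CPM (group median 241.1), Rplp1 at 28.73 (60.86) and Rplp2 at 21.09 (37.88). Replicate 2 of DBA/2J M Low Protein was low in the members' mean log2 CPM, 5.95 beside a median of 6.27, in Rpl13a (74.33 CPM, median 102.9) and in Rps20 (43.14 CPM, median 54.88). Replicate 1 of that group was high in Rplp1 at 114.7 CPM (median 65.23). Rplp0 was high at 223.4 CPM in replicate 1 of C57BL/6J F Low Protein (median 188) and at 113.2 CPM in replicate 5 of DBA/2J F Medium Protein (median 73.05). Rpl35a was high at 66.3 CPM in replicate 2 of C57BL/6J F Medium Protein (median 60.49).

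The Low Protein change differed between the sexes of C57BL/6J by the interaction term for Rpl5 (0.36) and Rps16 (-0.63), taking males minus females. It differed between males of the strains for Rpl5 (-0.33) and Rps12 (-0.44), taking DBA/2J minus C57BL/6J. Of tested genes, 1.85% differed upward and 2.71% downward between the sexes, and 1.97% and 0.909% between the strains. As given above, all of these calls but that of Rpl5 between the sexes were lost in many fits that left out 1 library. What lies behind these differences was not tested.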

How the results depend on the processing

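Counts below are members called, beside the main counts of 25 (Low Protein against Control, C57BL/6J M), 0 (C57BL/6J F), 0 (DBA/2J M), 3 (DBA/2J F), 29 (Low against Medium Protein, C57BL/6J M), 28 (Low Protein, average of 4), 7 and 3 (sex in C57BL/6J and DBA/2J), 18 and 20 (strain in M and F), 3 (sex interaction, C57BL/6J) and 2 (strain interaction, M). Against a fold of 1.2, strain left 9 (M) and 8 (F), and 0 remained for Low Protein in C57BL/6J M and DBA/2J F, Low against Medium Protein, the average, both sex comparisons and both interactions. Library totals gave 66 (C57BL/6J M), 1 (DBA/2J F), 65 (Low against Medium Protein), 59 (average), 61 and 46 (sex), 33 (sex interaction) and 20 (strain interaction). No share of tested genes under library totals, or under any other alternative in this section, is given beside its counts. Without the 13 libraries over 3 times the median rRNA-like share the counts were 14 (C57BL/6J M), 1 (DBA/2J F), 13 (Low against Medium Protein), 17 (average), 3 (sex in C57BL/6J), 11 (strain in M) and 0 (strain interaction). With no filter they were 1 (DBA/2J F), 18 (average), 4 (sex in C57BL/6J), 1 (sex interaction) and 0 (strain interaction). With the compared groups only they were 0 (DBA/2J F), 18 (Low against Medium Protein), 1 (sex interaction) and 1 (strain interaction). DESeq2 gave 1 (C57BL/6J F), 1 (DBA/2J M), 7 (DBA/2J F) and 6 (sex interaction), and limma-voom gave 1 (C57BL/6J F).

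Of the alternatives chosen after seeing the data, leaving out the 4 libraries over 5% rRNA-like gave 18 (Low against Medium Protein) and 1 in each interaction. Sums with copies gave 1 (C57BL/6J F), 11 (strain in F) and 1 (strain interaction). The GC correction gave 5 (sex in DBA/2J) and 1 (strain interaction). With RLE factors, or TMM computed without the members, no count differed by more than 1.5 times from its main value.

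Leaving out 1 library at a time gave counts of 16 to 28 (C57BL/6J M), 0 to 1 (C57BL/6J F), 1 to 12 (DBA/2J F), 17 to 30 (Low against Medium Protein), 22 to 35 (average), 4 to 13 and 1 to 4 (sex), 17 to 19 and 17 to 25 (strain), 0 to 8 (sex interaction) and 0 to 2 (strain interaction). The count of C57BL/6J M was 16 without Control replicate 4. Low against Medium Protein gave 19 without Medium Protein replicate 6, 18 without Low Protein replicate 5 and 17 without Low Protein replicate 6. Sex in C57BL/6J gave 13 without F Control replicate 3, and 4 without M Control replicates 3 or 4 or F Control replicate 2. Sex in DBA/2J gave 1 without M Control replicate 3. Low Protein in C57BL/6J F gave 1 without Control replicates 2, 5 or 6 or Low Protein replicate 1. The sex interaction gave 8 without F Control replicate 3, 0 without F Control replicate 2, and 1 without M Control replicate 3, F Control replicate 6 or replicate 3 of either Low Protein group. The strain interaction gave 0 without C57BL/6J Control replicates 1, 2 or 4, C57BL/6J Low Protein replicates 5 or 6, DBA/2J Control replicates 1, 3 or 6, or DBA/2J Low Protein replicates 1, 2 or 4. It gave 1 without C57BL/6J Control replicates 3 or 5, C57BL/6J Low Protein replicates 1, 2 or 3, or DBA/2J Control replicate 4.

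Directions turned in the sex comparisons under library totals, in C57BL/6J for Rps2 (-0.053), Rpl41 (-0.077), Rps15 (-0.12), Rplp0 (-0.054), Rpsa (-0.28) and Rpl11 (-0.30), and in DBA/2J for Rpl35a (-0.073), Rpsa (-0.28), Rpl11 (-0.27), Rpl10 (-0.24) and Rps4x (-0.27). Rps15 also turned in C57BL/6J under the GC correction (-0.027), and Rps18 between strains in males when summed with its copies (0.055). The cause was not tested. No paired analysis was possible because replicate numbers follow accession order and tie no animals together across groups.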
